A study of Mus musculus with 4 samples.

Results

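Histone deacetylases and sirtuins take acetyl groups off lysines of histones and other proteins, and 10 genes of this kind were followed between 2 chromatin configurations of the mouse oocyte. The set was chosen by symbol from the listed genes and holds the zinc-dependent deacetylases Hdac1, Hdac2, Hdac3, Hdac4, Hdac6 and Hdac8, the NAD-dependent sirtuins Sirt1, Sirt2 and Sirt6, and Sin3a, the scaffold on which Hdac1 and Hdac2 are assembled into a corepressor. All 10 were among the 16861 genes listed in every library, and the rule uses the symbols alone.

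Germinal vesicle (GV) oocytes, which are fully grown and still arrested before meiotic maturation, were taken from antral follicles of 3-week-old female C57BL/6J mice, a wild-type inbred strain. After staining of the DNA with Hoechst in medium with milrinone, which holds the meiotic arrest, they were sorted by eye into NSN (non-surrounded nucleolus) oocytes, with diffuse chromatin, and SN (surrounded nucleolus) oocytes, with chromatin condensed in a ring around the nucleolus, and oocytes that could not be placed were set aside. RNA-seq by Smart-seq2, in which cDNA is primed at the poly(A) tail and amplified by PCR, gave 2 NSN and 2 SN libraries of 15 pooled oocytes each. Each pool was sorted by the look of its chromatin alone, and nothing in the labels says that the replicates came from separate animals, so the p-values measure only the spread between these samples, which may be technical.

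The enzymes fall into classes by mechanism and place. Class I deacetylases (Hdac1, Hdac2, Hdac3 and Hdac8) are mainly nuclear and act, except for Hdac8, as catalytic subunits of large corepressor complexes, class II enzymes (Hdac4 and Hdac6) shuttle to or reside in the cytoplasm, and sirtuins use NAD as a cosubstrate. In growing mouse oocytes Hdac1 and Hdac2 are known to compensate in part for each other, and histones of GV oocytes are known to lose acetylation as meiosis resumes.

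Values are FPKM, that is read pairs per kilobase of gene and relative to the total of the library. They are shares of a library and carry no amount of RNA per oocyte, and in a pool of 15 oocytes, fewer oocytes with a transcript and less transcript in each cannot be told apart. The library totals were 17069772 to 17998361 read pairs, at which 3 read pairs on a gene of 1 kb give 0.167 to 0.176 FPKM, a floor for counting error alone, as copies made by PCR are no independent molecules. The configurations were compared by limma on log2(FPKM + 0.5) over the 11672 genes whose mean reached 0.5 FPKM. To be called, a gene needed a limma p under 0.05 after Benjamini-Hochberg adjustment, together with a 1.2-fold change or more. On this scale the change of lowly expressed genes is understated. For any 1 gene, permuting the 4 libraries allows no exact two-sided p smaller than 0.333. The 10 oocyte markers examined (such as Gdf9 and Zp3) were listed in every library. Their summed FPKM was 20032 and 18909 in the NSN and 13253 and 12357 in the SN libraries. Of these 10 markers, 8 were called lower in SN, against 1.98% of all tested genes. Granulosa and cumulus markers summed to between 9.48 and 13.9 FPKM over the 9 of 13 that were listed. The highest of them was Cyp19a1, with 5.81 and 8.06 FPKM in NSN and 8.38 and 8.22 FPKM in SN. Foxl2, Amh, Ptx3 and Amhr2 were not among the listed genes. Theca and stroma markers were listed for 2 of 5 genes (0.849 and 1.79 FPKM in NSN, 2.74 and 2.20 in SN) and blood markers for 0 of 3. The part of the fall of the oocyte markers, or of the somatic RNA, in the values below was not tested.

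Hdac2 rose from NSN to SN oocytes, and it was the only 1 of the 9 tested members that was called, against 7.93% of all tested genes. Sin3a and Sirt6 were higher in each SN library than in either NSN library and Hdac1 was lower, but none of these 3 passed the threshold over all genes, although each had an unadjusted limma p under 0.05. With Hdac2 that makes 4 of 9 members at such a p, against 31.7% of all tested genes. Over the 9 tested members, 3 had both SN libraries above both NSN libraries (44.8% of all tested genes) and 1 had both below (17.8%), while the groups overlapped for the other 5. That makes 4 of 9 members without overlap, against 62.6% of all tested genes. The median log2 fold change of the members was -0.04, with 4 positive and 5 negative values, whereas 66.7% of all tested genes were positive and their median was 0.14. Hdac4 was below the filter and was not tested.

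**Figure D1:**
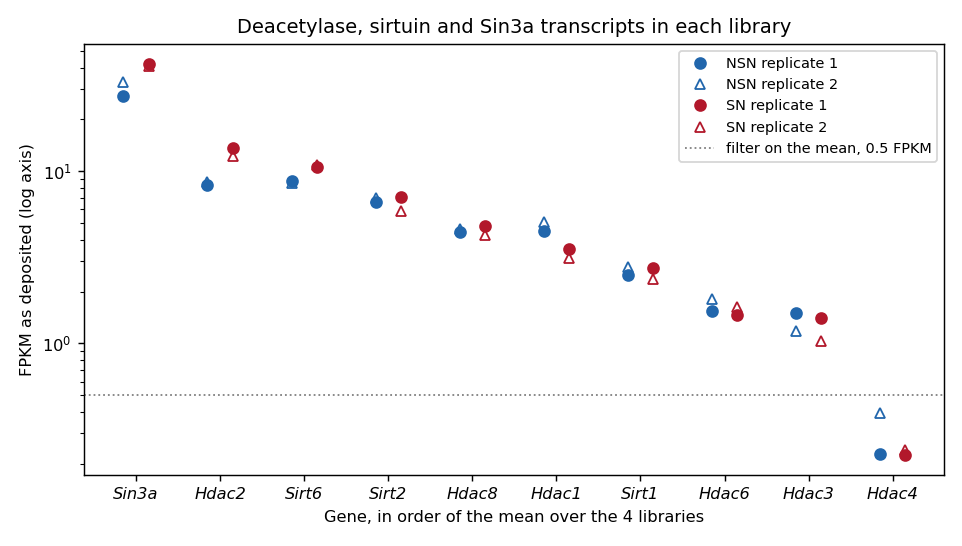
FPKM as deposited (log axis) of the 10 genes in each of the 4 libraries, ordered by their mean; blue points are NSN and red points SN libraries, and the dotted line is the filter on the mean at 0.5 FPKM. Sin3a is the highest at 27.3 to 42.2 FPKM, Hdac2 and Hdac1 move apart between the configurations, and Hdac4 lies under the filter.

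The libraries were primed at the poly(A) tail, and the annotated transcript ends are therefore shown for the 3 members that were higher in both SN libraries. Each line gives 30 bases of the annotated canonical transcript on its own strand, from GENCODE on GRCm39, with the letters of the polyadenylation signal in capitals:
Hdac2: gtaattatctttATTAAAaaattgtacttg
Sirt6: agctcccaatgcAATAAAtacaaaatccct
Sin3a: ctggttatttccATTAAAgcaggctagtta

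They lie at chr10:36877854-36877883 (plus strand) for Hdac2, chr10:81457633-81457662 (minus strand) for Sirt6 and chr9:57037351-57037380 (plus strand) for Sin3a. The signal begins 25, 30 and 19 bases before the end of the transcript, in the same order. Sirt6 carries the canonical AATAAA, and Hdac2 and Sin3a carry the variant ATTAAA. Within the last 100 bases, searched on the transcript strand alone, AATAAA occurred in 4 of the 10 members (Sirt6, Hdac4 and Hdac8 among them) and in 63.5% of the 9589 tested protein-coding transcripts. ATTAAA occurred in 3 members (Hdac2, Sirt2 and Sin3a) and in 21.5% of those transcripts, and Hdac6, Sirt1 and Hdac3 held neither. TTTTAT, letters of the cytoplasmic polyadenylation element, was found in 0 of the 10 members and in 13.9% of the transcripts, which says only that these letters are not in this window of the annotated transcript.

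Hdac2 (ENSMUSG00000019777.18, chr10:36850435-36877890, plus strand), a catalytic subunit of the Sin3, NuRD, CoREST and MiDAC complexes, had 8.37 and 8.63 FPKM in the NSN and 13.6 and 12.3 FPKM in the SN libraries. These rest on 617 and 654 read pairs in NSN and 986 and 940 in SN. The 2 configurations were well apart, with a gap larger than the difference between replicates of either. The log2 fold change was 0.58 (95% interval 0.32 to 0.84, standard error 0.11, limma adjusted p = 0.0393), a fold of 1.50. The call was close to the threshold. The limma adjusted p ranged from 0.00298 to 0.111 over the alternatives, and it was 0.0993 without NSN replicate 1, 0.119 without SN replicate 1 and 0.0992 without SN replicate 2, and the log2 fold change stayed between 0.51 and 0.65 when any 1 library was dropped. After each library was rescaled to its median gene, which moves the median log2 fold change of all genes from 0.14 to 0.0051, the value of Hdac2 was 0.44 (limma adjusted p = 0.0667) and it was not called. Of all tested genes 2.2% were called in that fit, and 0 of the 9 members. With the replicate number as a block it was not called either, beside 3.62% of all genes.

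Hdac1 (ENSMUSG00000028800.17, chr4:129409895-129436631, minus strand), the paralog of Hdac2 in the same complexes, had 4.51 and 5.10 FPKM in NSN and 3.54 and 3.14 FPKM in SN oocytes, on 115 to 186 read pairs. Each SN value was below each NSN value, the opposite order to Hdac2. The log2 fold change was -0.47 (95% interval -0.80 to -0.14, standard error 0.14), which did not pass over all genes (limma adjusted p = 0.0804). It was negative under each alternative that tested it, which leaves out the filter at a mean of 5 FPKM, and with each library left out (from -0.55 to -0.39), and was called under 1 of them, voom on read pairs with median scaling (log2 fold change -0.68, limma adjusted p = 0.0234, where 14.6% of all genes were called). A processed pseudogene, Hdac1-ps, is annotated but is not among the listed genes.

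The other class I enzymes showed no such separation. Hdac8 (ENSMUSG00000067567.14, chrX:101328244-101549026, minus strand), a deacetylase of the cohesin subunit Smc3 that works outside the corepressor complexes, had 4.42 and 4.61 FPKM in NSN and 4.81 and 4.28 FPKM in SN oocytes. The SN values enclose the NSN values, and the log2 fold change was 0.01 (95% interval -0.30 to 0.32, limma adjusted p = 0.98), turning negative after median scaling (-0.13). Hdac3 (ENSMUSG00000024454.18, chr18:38068897-38088077, minus strand), the catalytic subunit of the NCoR/SMRT complex, had 1.50 and 1.18 FPKM in NSN and 1.41 and 1.04 FPKM in SN oocytes. Here the replicates of each group differed by more than the groups did. Its 38 to 53 read pairs per library left a wide interval around the log2 fold change of -0.10 (95% interval -0.56 to 0.36, limma adjusted p = 0.76).

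**Figure D2:**
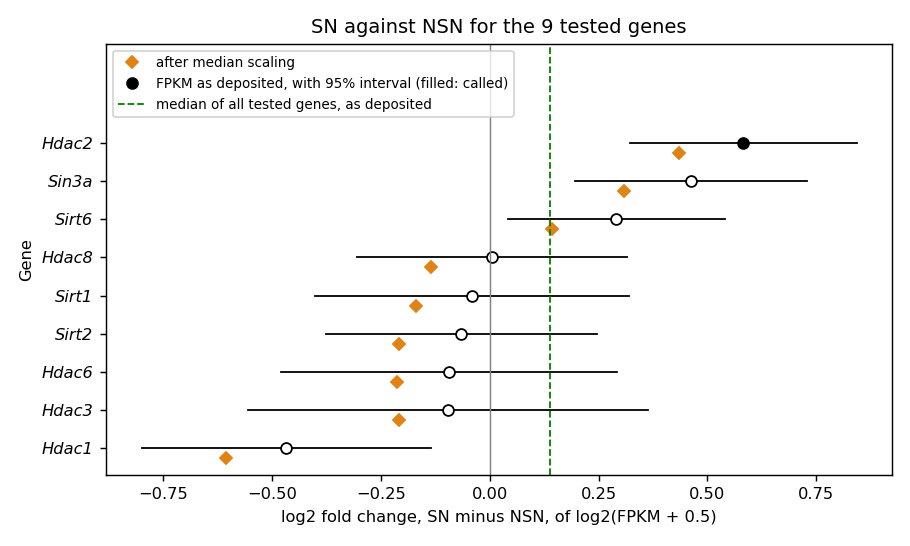
Log2 fold changes, SN minus NSN, of the 9 tested members on the log2(FPKM + 0.5) scale, with limma's 95% interval (black, filled where called) and the value after median scaling (orange); the green dashed line is the median of all tested genes, 0.14. Hdac2 is the only filled point at 0.58, Sin3a and Sirt6 have intervals above 0, Hdac1 has an interval below 0, and the other 5 cross it.

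The ratio of Hdac1 to Hdac2 within a library does not depend on the library total. It was 0.538 and 0.591 in the NSN and 0.259 and 0.254 in the SN libraries, so that the ratio was 2.20-fold lower in SN. The mean log2 ratio went from -0.83 ± 0.09 to -1.96 ± 0.02 (SD, n = 2 each), a difference of -1.14, far larger than either SD (two-sided exact permutation p = 0.333, the smallest that 2 against 2 libraries allow, and 0.444 after adjustment over the 4 ratios computed). The size of the ratio depends on the gene lengths used for FPKM, whereas its change does not. The lengths recovered, the smallest that give whole read pairs, were 2038 bp for Hdac1 and 4232 bp for Hdac2. Of the summed FPKM of the 4 class I genes, Hdac2 took 44.5% and 44.2% in NSN and 58.3% and 59.4% in SN. Hdac1 took 24.0% and 26.1% in NSN and 15.1% in each SN library. The share of Hdac8 was 23.5% and 23.6% in NSN and 20.6% in each SN library, and that of Hdac3 was 7.97% and 6.05% in NSN and 6.03% and 4.997% in SN. Their sum was 18.8 and 19.5 FPKM in NSN and 23.4 and 20.8 FPKM in SN oocytes.

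**Figure D3:**
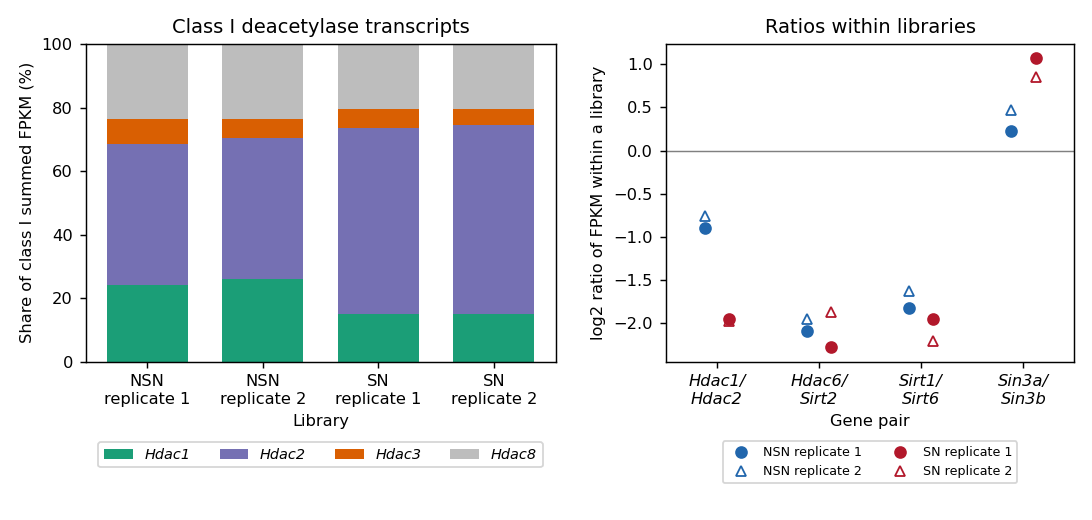
Left, share (%) of each class I gene in their summed FPKM for each library as stacked bars from 0 to 100%; right, log2 ratio of FPKM within a library for 4 gene pairs, with NSN in blue and SN in red. The share of Hdac2 goes from about 44.4% to 58.8% and that of Hdac1 from 25.0% to 15.1% in the group means, and the Hdac6 to Sirt2 ratio overlaps between the groups.

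Sin3a (ENSMUSG00000042557.16, chr9:56979324-57037381, plus strand) was the most abundant member, above 90.2% of the listed genes by its mean. It had 27.3 and 33.0 FPKM in NSN and 42.2 and 40.8 FPKM in SN oocytes, on 2482 to 3839 read pairs. The SN libraries were close together and the NSN libraries spread. The log2 fold change was 0.46 (95% interval 0.20 to 0.73, standard error 0.11), just short of the threshold (limma adjusted p = 0.0536). The limma adjusted p ranged from 0.00609 to 0.148 over the alternatives, and with each library left out it was called only without NSN replicate 2 (0.0176 at a log2 fold change of 0.60). The limma adjusted p was 0.172 without NSN replicate 1 (log2 fold change 0.33), 0.142 without SN replicate 1 and 0.131 without SN replicate 2. It was called with Hdac2 by voom on read pairs (19.7% of all genes called) and among genes with a mean of 5 FPKM or more (27.1% called). Of its annotated exons, 9.63% overlap lncRNA genes on the other strand, and since strand was not used in counting, their reads cannot be told apart. Its paralog Sin3b, the scaffold of the alternative Sin3 complex, had 23.3 and 23.8 FPKM in NSN and 20.2 and 22.7 FPKM in SN oocytes (log2 fold change -0.13, limma adjusted p = 0.39). The ratio of Sin3a to Sin3b was 1.17 and 1.39 in NSN and 2.09 and 1.80 in SN, 1.52-fold higher in SN (two-sided exact permutation p = 0.333).

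The class II members were low. Hdac6 (ENSMUSG00000031161.17, chrX:7795684-7814404, minus strand), the cytoplasmic deacetylase of tubulin, had 1.55 and 1.81 FPKM in NSN and 1.46 and 1.62 FPKM in SN oocytes, and its ranges overlapped (log2 fold change -0.09, 95% interval -0.48 to 0.29, limma adjusted p = 0.72). Hdac4 (ENSMUSG00000026313.18, chr1:91855937-92123421, minus strand), a class IIa enzyme that recruits corepressors and leaves the nucleus on phosphorylation, had 0.227 and 0.393 FPKM in NSN and 0.224 and 0.240 FPKM in SN oocytes. It rested on 31 to 57 read pairs over a long gene, and NSN replicate 2 stood above the other 3 libraries. When all listed genes entered the fit, its log2 fold change was -0.14 (limma adjusted p = 0.60).

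Among the sirtuins, Sirt6 (ENSMUSG00000034748.18, chr10:81455262-81463631, minus strand), a chromatin-bound deacetylase of histone H3, had 8.81 and 8.54 FPKM in NSN and 10.6 and 10.8 FPKM in SN oocytes, on 355 to 453 read pairs. Replicates differed little and the groups were apart, but the difference was small. The log2 fold change was 0.29 (95% interval 0.04 to 0.54, standard error 0.10, limma adjusted p = 0.115), a fold of 1.22, and after subtraction of the median gene it was 0.15. Sirt1 (ENSMUSG00000020063.18, chr10:63154581-63217483, minus strand), the nuclear deacetylase of histones and transcription factors, had 2.49 and 2.77 FPKM in NSN and 2.74 and 2.36 FPKM in SN oocytes (log2 fold change -0.04, 95% interval -0.40 to 0.32, limma adjusted p = 0.88). Sirt2 (ENSMUSG00000015149.16, chr7:28466160-28488090, plus strand), a mostly cytoplasmic deacetylase of tubulin and histone H4, had 6.60 and 6.96 FPKM in NSN and 7.04 and 5.92 FPKM in SN oocytes (log2 fold change -0.07, 95% interval -0.38 to 0.25, limma adjusted p = 0.76). For both genes the libraries of the 2 configurations overlapped. The interval of Sirt1 includes the log2 fold change of Sirt6, and that of Sirt2 does not. Other annotated genes overlap 18.0% of the exons of Sirt1, 10.6% of Sirt2 and 4.02% of Sirt6.

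The ratio of Sirt1 to Sirt6 was 0.283 and 0.325 in NSN and 0.258 and 0.218 in SN oocytes, 1.28-fold lower in SN with groups apart (two-sided exact permutation p = 0.333). That of the tubulin deacetylases Hdac6 and Sirt2 was 0.235 and 0.259 in NSN and 0.207 and 0.274 in SN, with overlapping groups (two-sided exact permutation p = 1). Of the 4 sirtuins outside the set, 0 were called by limma (7.93% of all genes) or by voom (19.7%), 0 had an unadjusted limma p under 0.05 (31.7%), and 0 had groups without overlap (62.6%). Sirt7, a nucleolar sirtuin, was the highest of all 7, at 22.5 and 23.7 FPKM in NSN and 22.9 and 21.7 FPKM in SN (log2 fold change -0.05, limma adjusted p = 0.74). It held 40.0% to 42.8% of the summed sirtuin FPKM in each library, followed by Sirt6 with 16.1% and 15.4% in NSN and 18.5% and 20.2% in SN. The mitochondrial Sirt3, Sirt4 and Sirt5 had log2 fold changes of -0.12, -0.05 and -0.00 (limma adjusted p = 0.74, 0.81 and 0.99). The summed FPKM of the 7 sirtuins was 54.6 and 55.3 in NSN and 57.2 and 53.6 in SN.

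By level, the order in NSN oocytes was Sin3a, Sirt6, Hdac2, Sirt2, Hdac1, Hdac8, Sirt1, Hdac6, Hdac3 and Hdac4, in FPKM per length. Sirt6 and Hdac2 overlapped there, as did Hdac1 and Hdac8, and the other neighbours did not. In SN oocytes Hdac2 stood above Sirt6 (13.0 ± 0.925 against 10.7 ± 0.172 FPKM, SD, n = 2) and Hdac8 above Hdac1 (4.54 ± 0.378 against 3.34 ± 0.283), and no neighbours overlapped. The lower part of the order, from Sirt1 through Hdac6 and Hdac3 to Hdac4, was the same in both configurations. Of the remaining zinc-dependent deacetylases, Hdac9, a class IIa enzyme, had 0.509 and 0.574 FPKM in NSN and 0.828 and 0.676 FPKM in SN (log2 fold change 0.26, limma adjusted p = 0.36). Hdac10 had 3 to 7 read pairs and was not tested, and Hdac5, Hdac7 and Hdac11 were not among the listed genes.

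The complexes in which these enzymes work were read from the same fit. The members were left out of these counts, although Hdac1, Hdac2, Hdac3 and Sin3a are subunits too. Of 33 other tested subunits of the Sin3, NuRD, CoREST, NCoR/SMRT and MiDAC complexes, 4 were called higher in SN (5.95% of all tested genes) and 0 lower (1.98%). At an unadjusted limma p under 0.05 there were 13 higher and 2 lower, against 23.8% and 7.86% of all tested genes. Voom on read pairs called 10 higher and 1 lower (15.1% and 4.58% of all genes), and with median scaling 6 higher and 2 lower (6.38% and 8.26%). Both SN libraries were above both NSN libraries for 20 and below for 4, against 44.8% and 17.8% of all tested genes. The median log2 fold change was 0.24 beside 0.14 for all genes. The 4 called genes among these subunits outside the members belonged to the Sin3 and NuRD complexes. In the Sin3 complex, Sinhcaf, a core subunit, rose from 37.0 and 38.3 FPKM to 53.3 and 54.2 FPKM (log2 fold change 0.51, standard error 0.08, limma adjusted p = 0.0364). Sap30, a subunit bound to Sin3, rose from 15.7 and 19.6 FPKM to 28.3 and 31.4 FPKM (log2 fold change 0.75, standard error 0.13, limma adjusted p = 0.0375). Other genes overlap 31.1% of the exons of Sap30 and 18.0% of those of Sinhcaf, so the read pairs of both are uncertain. The length recovered for Sap30, 589 bp, is the smallest that gives whole read pairs, so the read pairs used for voom may be too few by a common factor. In the NuRD complex, the remodelling ATPase Chd4 rose from 6.54 and 7.24 FPKM to 10.9 and 9.75 FPKM (log2 fold change 0.55, standard error 0.12, limma adjusted p = 0.0457). Mta1, a subunit that binds Hdac1 and Hdac2 directly, rose from 2.31 and 2.15 FPKM to 3.62 and 3.79 FPKM (log2 fold change 0.62, standard error 0.14, limma adjusted p = 0.0466). None of the 4 was called after median scaling, with limma adjusted p of 0.0574 for Sap30, 0.0621 for Sinhcaf, 0.0818 for Chd4 and 0.0845 for Mta1, and none was called without NSN replicate 1, without SN replicate 1 or without SN replicate 2.

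By complex, limma called 2 of 15 tested Sin3, 2 of 10 NuRD, 0 of 7 CoREST and 0 of 3 NCoR/SMRT subunits outside the members. Hdac2, the called member, is a subunit of Sin3, NuRD and CoREST and is not counted here. The share called over all tested genes was 7.93%, in either direction. At an unadjusted limma p under 0.05 there were 3 Sin3 subunits higher and 1 lower, and 4 NuRD subunits higher. Such a p was also reached by 5 CoREST subunits (4 higher, 1 lower) and 2 NCoR/SMRT subunits (both higher). The share over all tested genes was 31.7%. Voom on read pairs called 2 Sin3 and 2 NuRD subunits higher. Its CoREST and NCoR/SMRT numbers were the same as at that p (19.7% of all genes called). With median scaling, voom called 2 Sin3 subunits higher and 1 lower, and 2 NuRD subunits higher. It also called 1 CoREST subunit higher and 1 lower and 1 NCoR/SMRT subunit higher (14.6%). The median log2 fold changes of Sin3, NuRD, CoREST and NCoR/SMRT were 0.11, 0.10, 0.37 and 0.42, in that order. The histone-binding subunit Rbbp7, shared by Sin3 and NuRD, was by far the most abundant at 2516 and 2593 FPKM in NSN and 2727 and 2711 FPKM in SN, and its log2 fold change of 0.09 (limma adjusted p = 0.38) turned negative under median scaling. Tbl1xr1, an exchange factor of the NCoR/SMRT complex, had 3.73 and 4.04 FPKM in NSN and 6.06 and 5.44 FPKM in SN (log2 fold change 0.51, limma adjusted p = 0.0597). Of the MiDAC complex, Dnttip1 and Mideas were listed but below the filter, Dnttip1 with 11 to 24 read pairs. The 9 tested genes of NAD metabolism make or use the cosubstrate of the sirtuins. Limma called 0 of them in either direction, against 7.93% of all tested genes, and their median was 0.11. At an unadjusted limma p under 0.05 there were 1 higher and 1 lower, against 23.8% and 7.86% of all tested genes. Voom on read pairs called 0 of them (19.7% of all genes). With median scaling it called 0 higher and 2 lower (6.38% and 8.26% of all genes). The NAD kinase Nadk was the highest of them at 32.4 and 32.0 FPKM in NSN and 29.7 and 27.5 FPKM in SN (log2 fold change -0.17, limma adjusted p = 0.24).

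**Figure D4:**
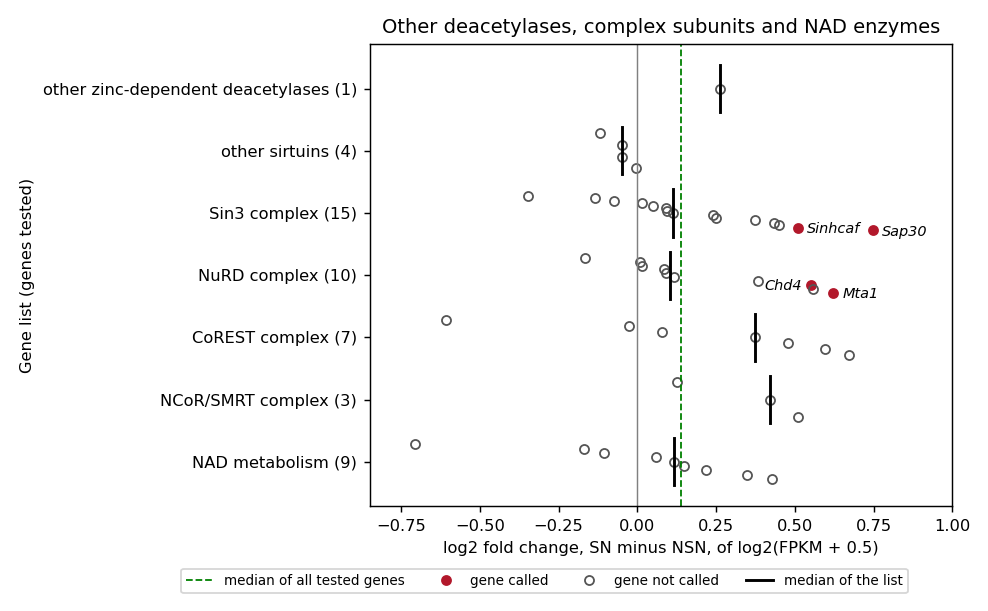
Log2 fold changes, SN minus NSN, on the log2(FPKM + 0.5) scale for the tested genes of 7 lists, 1 point a gene, with the median of each list (black bar) and of all tested genes (green dashed line, 0.14). The members are left out of these lists. The 4 called genes (red) are Sinhcaf, Sap30, Chd4 and Mta1, and the other sirtuins lie near 0.

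Over the 4 libraries, the genes whose log2(FPKM + 0.5) followed that of Hdac2 most closely among the other 11671 tested genes were Bin2, Rgs17 and Polr2b, the last a core subunit of RNA polymerase II (Pearson r = 0.9999 each). This is a description over 4 libraries in 2 groups, in which 299 genes had r over 0.99. Bin2 had 37.8 and 38.8 FPKM in NSN and 53.0 and 49.4 FPKM in SN oocytes, and Polr2b had 33.4 and 33.9 FPKM in NSN and 43.6 and 41.4 FPKM in SN oocytes. Rgs17 had 10.2 and 10.4 FPKM in NSN and 12.4 and 11.9 FPKM in SN oocytes.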

How the data were processed

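RNA-seq libraries of mouse GV oocytes were analysed, 2 of NSN and 2 of SN oocytes. The authors trimmed reads with Trim Galore 0.6.10, aligned them with HISAT2 (genome GRCm39), used featureCounts for unstranded counts of read pairs over GENCODE exons, and deposited FPKM. The deposited unit is FPKM, and their count test was not repeated, also not on the read pairs recovered from it.

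Values were taken as log2(FPKM + 0.5) for genes averaging 0.5 FPKM or more and tested in R 4.3.3 by limma 3.58.1 (two-sided, variance trend). The same files gave library totals from 5 mitochondrial tRNA genes of known length and, for 99.9% of genes, whole read pairs within a tolerance of 0.0001, used only for voom. The smallest length giving whole read pairs was taken, so read pairs of some genes may be too few by a common factor. Gene positions and transcript ends came from a later GENCODE release on GRCm39, in which 97.8% of symbols occur once. Ratios used an exact permutation test. Other values and plots were made with Python 3.11.15, numpy 2.4.6, pandas 2.3.3, scipy 1.17.1 and matplotlib 3.10.9.

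The text names all members, every other histone deacetylase and sirtuin gene, the called genes and the gene with the highest mean FPKM of each complex or metabolism list, and the 3 genes most like each called member. Items withheld from this text are not reported here. Sin3b was named for its ratio, and Mideas and the markers named were chosen after their values were seen. The members and lists were chosen with earlier results of these data known. The settings varied were the pseudocount (0.1 or 1), the filter (none, or a mean of 5 FPKM), the scaling (median or quantile), the variance trend (left out), a block for the replicate number, a loess fit on GC content (span 0.3, also together with that block), voom, and the set of libraries (each dropped in turn). After the data were seen, voom with median scaling was added.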

Additional observations from a re-analysis of the deposited data

How the results depend on the processing

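With the settings used, 926 of all tested genes, 1 member (Hdac2) and 4 other complex subunits were called. Limma called 0 genes, 0 members and 0 subunits in 3 settings, namely no filter (4092 genes at an unadjusted p under 0.05), no variance trend (3449), and GC content correction together with the replicate block (2719). Median scaling gave 257 genes (78 higher, 179 lower in SN, 30.4% higher against 75.1%) and quantile normalization 230 (74, 156, 32.2%), each with 0 members and 0 subunits. GC content correction gave 238 genes (89, 149, 37.4%), 0 members and 1 subunit. A mean FPKM of at least 5 gave 1496 genes, 2 members and 4 subunits. Voom on read pairs gave 2297 genes, 2 members (Hdac2 and Sin3a) and 11 genes of the lists, and with median scaling 1707 genes (744, 963, 43.6%), 3 members (with Hdac1) and 10 genes of the lists. The replicate block gave 422 genes (266, 156, 63.0%), 0 members and 2 subunits, and Hdac2 had a limma adjusted p of 0.0584. The numbers tie no libraries together in the labels, and the replicate differences of NSN and SN correlated at -0.07 across genes. The causes were not tested.

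With 1 library left out, limma treats the lone library of a group as varying like the others. This gave 0 genes without NSN replicate 1 (2278 at an unadjusted p under 0.05), 1685 without NSN replicate 2, 148 without SN replicate 1 and 11 without SN replicate 2, with 0 to 2 members and 0 to 4 subunits. The log2 fold change of Hdac8, 0.01, became -0.13 after median scaling, -0.14 after quantile normalization, -0.10 after GC content correction with or without the replicate block, and -0.15 with voom and median scaling. Dropping each library in turn moved it between -0.0709 and 0.0824. It moved Hdac3 between -0.252 and 0.0614, Sirt1 between -0.130 and 0.0497 and Sirt2 between -0.182 and 0.0517, so that these 4 changed sign, and none of them passed the threshold. The log2 difference of the Hdac1 to Hdac2 ratio was -0.98 with a pseudocount of 1. That of Hdac6 to Sirt2 lay between -0.257 and 0.151 with 1 library dropped, and was positive without NSN replicate 2 or SN replicate 1. Among the settings that used all 4 libraries, the 13 tested genes that are members or called subunits gave 109 values with the same direction and call, 32 that lost the call, 4 that gained it and 5 of the opposite sign. Depth limits genes with few read pairs, such as Hdac3 and Hdac4.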
